A study of Mus musculus with 10 samples.

Results

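The glycolysis and hypoxia genes described here are 33 genes named by symbol, from glucose uptake through the enzymes of glycolysis to lactate export, with regulators of flux, targets of hypoxia signalling and the oxygen-sensing machinery. They were picked by name from the 26063 genes of the deposited table, and all 33 symbols were found. Each had enough counts to be among the 14915 genes tested. The choice of members was made with results of these tumours known, including that Aldoc was higher in 16IC tumours. RNA came from mammary tumours of 10 female mice of the strain FVB/N, 5 of genotype 16IC/WT (16IC below) and 5 of genotype EIC/WT (EIC below). Every mouse of either genotype was given doxycycline (2 mg/ml), and tumours were flash frozen once they had reached their end point. The labels spell out neither genotype name and give no age or promoter, and no normal mammary gland was analysed here. The study's title speaks of the HER2 variant HER2∆16, of ENPP1 and of tumours cold to immune cells.

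Glycolysis splits glucose into pyruvate in the cytosol, and many tumours turn much of that pyruvate into lactate, which leaves the cell through monocarboxylate transporters. When oxygen is short, prolyl hydroxylases no longer mark the HIF alpha subunits for destruction, and HIF then switches on genes for glucose uptake, glycolysis, vessel growth and pH control. Several steps of glycolysis are run by paralogous enzymes with different tissue distributions, so a tumour can change which paralog it uses without changing the step. Levels below are counts after TMM scaling and division by library size (CPM), which serve to compare tumours for 1 gene. The authors' deposited FPKM values, which also divide by gene length, are used for shares within a pair and for ordering genes by level. Log2 ratios of paired genes and sums over genes use CPM and are compared between tumours. Differences are log2 of 16IC over EIC from edgeR's quasi-likelihood test, with Benjamini-Hochberg adjustment over the 14915 genes. In bulk RNA, fewer cells of a type and less RNA per cell cannot be told apart.

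Depth was similar in all libraries, with 14813940 to 16771426 counts in 16IC and 15690505 to 16947400 counts in EIC. The tumours read as epithelial: 8 luminal markers (Krt8, Krt18, Krt19, Epcam, Cdh1, Elf3, Cldn3 and Cldn7) summed to 3903 to 5800 CPM in 16IC and 4102 to 6435 CPM in EIC, with Krt19 at 0 in some tumours. Markers of other cells are given after the members' values, apart from neural ones beside Aldoc.

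Aldoc, the aldolase best known from brain, stood apart from the other 32 members, being higher in every 16IC tumour than in any EIC tumour. The lactate exporter Slc16a3, the hypoxia targets Ndrg1 and P4ha2, and several neighbours in the pathway had lower levels in 16IC, while most enzymes of the central pathway varied far more between tumours of 1 genotype than between genotypes. EdgeR called 0 of the 33 members at an adjusted p under 0.05, as it did of all genes tested (0.0%). At an unadjusted p under 0.05 it took 7 members (Aldoc higher in 16IC, and Ndrg1, P4ha1, P4ha2, Slc16a1, Slc16a3 and Slc2a1 lower), 21.2% of the members against 13.1% of all genes tested. By direction these are 3.03% higher and 18.2% lower, against 6.84% and 6.29% of all genes. DESeq2 called 4 members, Aldoc as higher and Ndrg1, P4ha2 and Slc16a3 as lower in 16IC, which is 12.1% of the members against 1.37% of all genes of the table and 2.04% of the genes tested by edgeR. The 1 higher call (3.03%) stands beside 0.545% of the table and 0.851% of genes tested, and the 3 lower calls (9.09%) beside 0.821% of the table and 1.19% of genes tested. Leaving out 16IC 1, 16IC 4, EIC 1, EIC 3 or EIC 4 left 2 calls by DESeq2, Aldoc and Slc16a3, which were called in all 10 such fits. The values of the genotypes did not overlap for 2 members, Aldoc and P4ha2, or 6.06% of them, against 2.58% of all genes tested (1.39% with 16IC higher, 1.19% with 16IC lower). That count became 6 (18.2%) without 16IC 3 or without EIC 2, beside 3.71% and 6.66% of all genes tested in the same comparisons.

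Of the 33 members 11 had a positive and 22 a negative log2 difference, with a median of -0.26, beside -0.02 over all genes tested (7114 positive, 7801 negative). This median is small against the tumours' own variation, since its SD between tumours of a genotype was 0.73, and without EIC 3 it was 0.10. Split by role, the 3 transporters were all negative (median -1.48) and the 8 hypoxia targets were all negative (median -1.13). The roles were assigned here, and other HIF or hypoxia-responsive members, such as Pgk1 (-0.16), Egln3 (0.01) and Hk2 (0.33), stand under other roles. Leaving out 1 tumour raised the difference to as much as 1.13 for Car9 and 0.59 for Bnip3, so their sign was not stable. The 16 glycolytic enzymes were evenly split (8 positive, 8 negative, median 0.02), as were, nearly, the 3 regulators of flux (1 positive) and the 3 genes of oxygen sensing (2 positive).

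**Figure D1:**
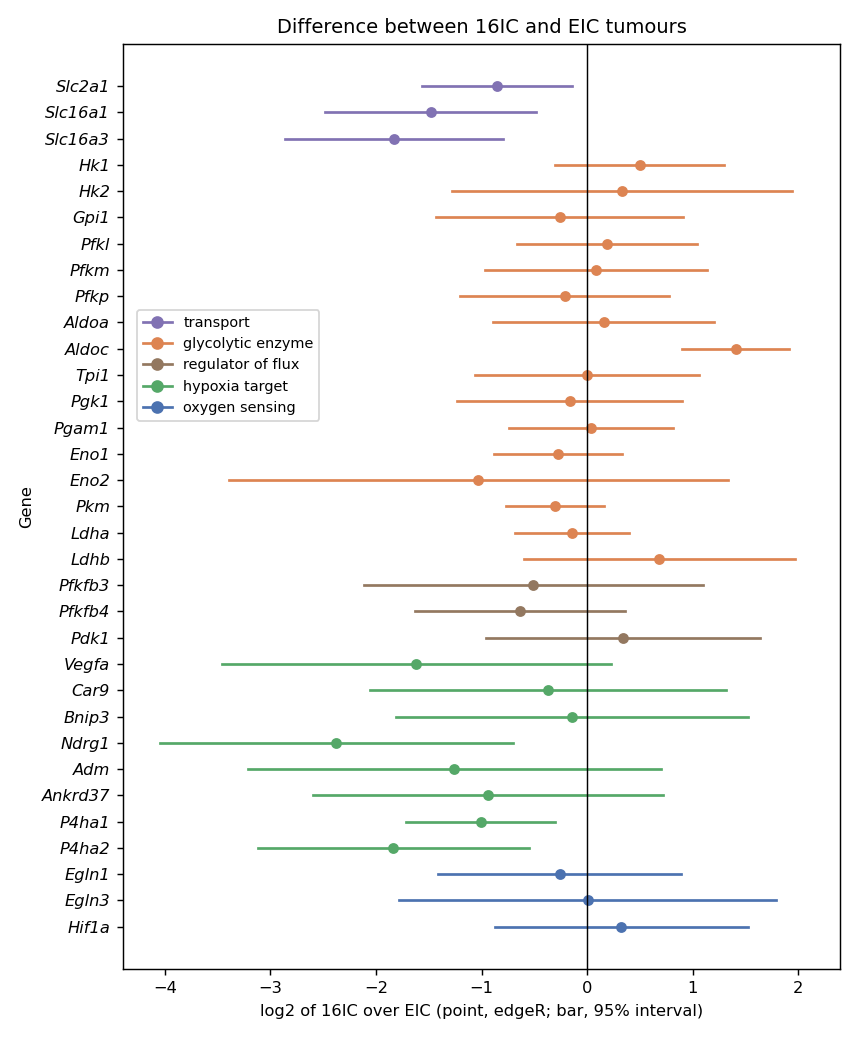
Log2 difference of 16IC over EIC for each of the 33 genes (points, edgeR) with its 95% interval (bars), grouped and coloured by role. The interval of Aldoc lies above 0, those of Slc2a1, Slc16a1, Slc16a3, Ndrg1, P4ha1 and P4ha2 lie below 0, and the other 26 cross it.

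The 3 transporters of the list were lower on average in 16IC, and the lactate exporter Slc16a3 was the one that DESeq2 called. Slc16a3 (ENSMUSG00000025161, GRCm38 chromosome 11, 120948480 to 120960868, plus strand) encodes MCT4, the low-affinity monocarboxylate transporter of cells that make much lactate. It had 3.39, 5.11, 17.7, 13.3 and 9.85 CPM in 16IC tumours 1 to 5, against 30.4, 15.5, 53.9, 41.7 and 34.1 CPM in EIC tumours 1 to 5. In EIC, 4 tumours were above every 16IC tumour, and EIC 2 lay within the 16IC range. The mean was 9.87 ± 5.87 CPM in 16IC and 35.1 ± 14.2 CPM in EIC (SD, n = 5 each). In log2, 16IC over EIC came to -1.83 for Slc16a3 (SE 0.46, 95% interval -2.86 to -0.80), at an edgeR p of 0.00253 and 0.254 after adjustment. DESeq2 gave an adjusted p of 0.0103, and at most 0.0498 when any 1 tumour was left out.

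Slc16a1 (ENSMUSG00000032902, chromosome 3, 104638668 to 104658462, plus strand) encodes MCT1, which carries lactate in either direction. It had 9.58, 38.2, 15.8, 10.97 and 34.0 CPM in 16IC tumours, against 71.7, 27.0, 46.6, 70.5 and 86.8 CPM in EIC tumours. The ranges overlapped through EIC 2, which was lower than 16IC 2 and 16IC 5. Slc16a1 averaged 21.7 ± 13.4 CPM in 16IC and 60.5 ± 23.7 CPM in EIC (SD, n = 5 each). This is a log2 difference of -1.48 (SE 0.45, 95% interval -2.48 to -0.48), and edgeR's p of 0.00785 became 0.288 after adjustment. DESeq2 put it just short of the threshold (adjusted p = 0.0526). Slc2a1 (ENSMUSG00000028645, chromosome 4, 119108711 to 119137983, plus strand) encodes the glucose transporter GLUT1. It had 88.5, 161, 174, 138 and 164 CPM in 16IC tumours, against 181, 169.8, 512, 219.5 and 224 CPM in EIC tumours. The highest 16IC tumour passed the lowest EIC tumour, and EIC 3 stood far above all others. The mean was 145 ± 34.2 CPM in 16IC and 261 ± 142 CPM in EIC (SD, n = 5 each). EdgeR gave Slc2a1 a log2 difference of -0.85 (SE 0.32, 95% interval -1.56 to -0.14), with a p of 0.0236 and an adjusted p of 0.327. Without EIC 3 the difference was -0.46. Within the pair of lactate transporters, Slc16a3 made up 30.1 ± 18.1% of the summed FPKM in 16IC and 33.01 ± 9.70% in EIC (SD, n = 5 each). Their log2 ratio differed by -0.35 (SE 0.66, exact permutation p = 0.595, adjusted 0.810), and the genotypes overlapped in it.

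The windows just upstream of these transporters are shown because HIF binds the core motif ACGTG or GCGTG, and a motif match in a window is a description of its letters, not a bound site. Each is the 250 bases upstream of a RefSeq transcription start on GRCm38.p6, 5′ to 3′ on the gene's strand, with capitals on every ACGTG or GCGTG on either strand (on the opposite strand they read CACGT and CACGC, and CACGTG holds the motif on both).
Slc16a3, chr11:120948817-120949066, plus strand: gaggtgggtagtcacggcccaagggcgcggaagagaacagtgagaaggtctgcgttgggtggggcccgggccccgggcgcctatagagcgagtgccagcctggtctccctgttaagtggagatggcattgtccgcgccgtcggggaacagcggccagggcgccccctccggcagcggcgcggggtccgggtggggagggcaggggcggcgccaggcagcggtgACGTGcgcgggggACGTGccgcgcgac
Slc16a1, chr3:104638414-104638663, plus strand: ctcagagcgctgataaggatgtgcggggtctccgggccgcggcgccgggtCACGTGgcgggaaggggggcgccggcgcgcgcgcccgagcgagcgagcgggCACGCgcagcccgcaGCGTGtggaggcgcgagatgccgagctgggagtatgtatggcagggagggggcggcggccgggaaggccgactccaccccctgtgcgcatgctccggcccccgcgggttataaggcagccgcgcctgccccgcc
Slc2a1, chr4:119108495-119108744, plus strand: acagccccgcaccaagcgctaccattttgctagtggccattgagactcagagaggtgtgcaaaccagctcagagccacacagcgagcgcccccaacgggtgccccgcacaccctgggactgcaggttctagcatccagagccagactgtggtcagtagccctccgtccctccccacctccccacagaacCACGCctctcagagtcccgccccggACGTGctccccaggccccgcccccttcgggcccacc
The Slc16a3 window holds ACGTG at 2 places close to the RefSeq start. The Slc16a1 window holds 4 matches with a CACGTG among them, and the Slc2a1 window holds 1 match of each motif. RefSeq starts can differ from the gene positions given above. By those positions the Slc16a3 window lies inside the gene, and the Slc2a1 window runs past the gene start.

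Among the 16 enzymes, Aldoc was the one that DESeq2 called. Aldoc (ENSMUSG00000017390, chromosome 11, 78322968 to 78327781, plus strand) encodes aldolase C, which splits fructose 1,6-bisphosphate as aldolase A does. It had 1880.4, 1268, 1429, 1592 and 1241 CPM in 16IC tumours 1 to 5, against 450.0, 503, 800.0, 386 and 657 CPM in EIC tumours 1 to 5. The lowest 16IC tumour was still well above EIC 3, the highest EIC tumour, so the groups did not overlap. Aldoc averaged 1482 ± 263 CPM in 16IC and 559 ± 168 CPM in EIC (SD, n = 5 each). In log2, 16IC over EIC came to 1.41 for Aldoc (SE 0.23, 95% interval 0.90 to 1.91), at an edgeR p of 8.82e-05 and 0.140 after adjustment. DESeq2 gave an adjusted p of 1.22e-05, and at most 4.49e-04 without any 1 tumour. The authors' deposited table holds the same value for the same counts, which is no separate evidence. Genotype accounted for 84.3% of the variance of log2 Aldoc levels, the highest share of the 33 members. Of neural and glial markers, Sox10, Gfap, Tubb3 and S100b summed to 619.6, 758, 884, 903 and 902 CPM in 16IC tumours, against 444.5, 1052, 854, 505 and 620.4 CPM in EIC tumours. The sums overlapped, EIC 2 having the highest, and 3 of these 4 genes had higher means in 16IC. Most of each sum was Sox10, at 599.7 to 889.8 CPM in 16IC and 440.2 to 983.6 CPM in EIC. The other 3 genes stayed at or under 73.9 CPM, with Gfap at 0.937 to 4.92 CPM in 16IC and 0.625 to 2.08 CPM in EIC. The sums thus mainly follow Sox10 and are no measure of neural or glial cells. The neuronal tubulin Tubb3 was lowest, at 0.0608 to 1.13 CPM in 16IC and 0 to 1.19 CPM in EIC. Their part in the Aldoc difference was not tested.

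RefSeq lists 2 starts for Aldoc, and their upstream windows (250 bases each, same build and marking) are shown because this is the member that was higher in 16IC.
Aldoc, chr11:78322823-78323072, plus strand: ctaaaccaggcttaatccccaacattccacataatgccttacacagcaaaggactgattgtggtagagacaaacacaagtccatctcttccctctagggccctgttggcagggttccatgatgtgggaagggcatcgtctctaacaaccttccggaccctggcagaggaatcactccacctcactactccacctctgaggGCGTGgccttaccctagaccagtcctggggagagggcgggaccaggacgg
Aldoc, chr11:78323948-78324197, plus strand: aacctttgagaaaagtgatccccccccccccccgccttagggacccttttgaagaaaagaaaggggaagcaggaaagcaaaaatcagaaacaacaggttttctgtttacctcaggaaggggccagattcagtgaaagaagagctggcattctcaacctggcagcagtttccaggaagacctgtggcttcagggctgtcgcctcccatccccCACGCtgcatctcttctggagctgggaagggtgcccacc
Each Aldoc window holds 1 GCGTG, as written in the first and as CACGC in the second, and neither holds ACGTG. By the gene position given above, the first window runs past the gene start and the second lies inside the gene.

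Aldoa, the aldolase of muscle and most other tissues, did not follow Aldoc. It had 1404, 1018, 4183, 2659.7 and 944 CPM in 16IC tumours, against 1219.5, 3371, 2067, 1291 and 1195 CPM in EIC tumours. The highest tumours were 16IC 3, EIC 2 and 16IC 4, and the groups overlapped throughout. The mean was 2042 ± 1381 CPM in 16IC and 1829 ± 935 CPM in EIC (SD, n = 5 each). This is a log2 difference of 0.16 (SE 0.47, 95% interval -0.89 to 1.20), and edgeR's p of 0.743 became 0.898 after adjustment. Per length, Aldoc made up 54.4%, 52.6%, 23.4%, 34.8% and 54.0% of the summed Aldoc and Aldoa FPKM in 16IC tumours, against 24.8%, 11.8%, 25.7%, 21.1% and 32.9% in EIC tumours. In 3 of the 16IC tumours Aldoc was thus the more abundant aldolase transcript, and in 0 EIC tumours. The log2 ratio of Aldoc to Aldoa differed by 1.40 (SE 0.50) between 16IC and EIC, with an exact two-sided permutation p of 0.0397 and 0.349 after adjustment over the 11 pairs compared. The smallest p that 5 against 5 tumours allow is 0.00794. The ratios of the genotypes overlapped, with 16IC 3 and 16IC 4, which had most Aldoa in 16IC, at the low end of that genotype. Across the 10 tumours log2 Aldoa and log2 Aldoc had a Pearson r of 0.118 (permutation p = 0.738, adjusted 0.843) and a Spearman rho of 0.200 (p = 0.584, adjusted 0.668). Without EIC 2 and 16IC 3, the tumours farthest out in Aldoa, r was 0.208.

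**Figure D2:**
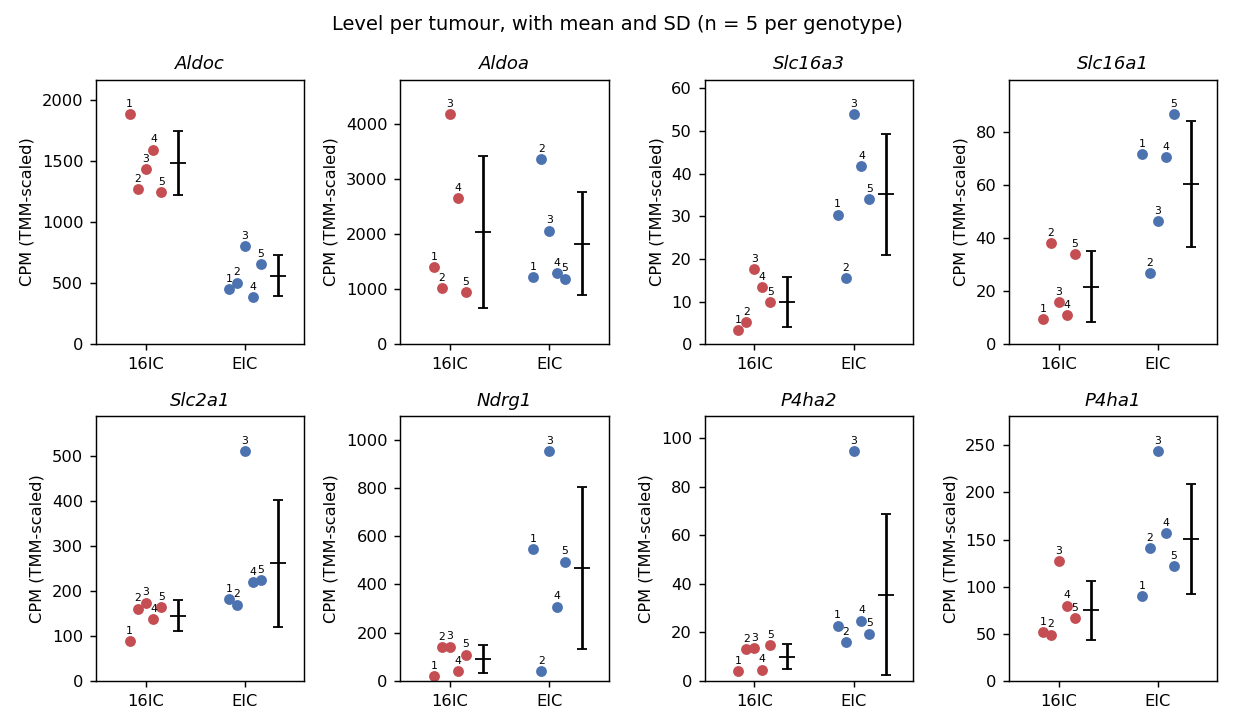
CPM in each tumour (points, numbered by tumour; 16IC red, EIC blue) with the mean and SD of each genotype (black bars, n = 5) for Aldoc, Aldoa and the 6 members with a negative difference at an unadjusted p under 0.05. Aldoc is separated with 16IC on top, P4ha2 with EIC on top, and EIC 3 is the highest tumour for Slc16a3, Slc2a1, Ndrg1, P4ha2 and P4ha1.

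**Figure D3:**
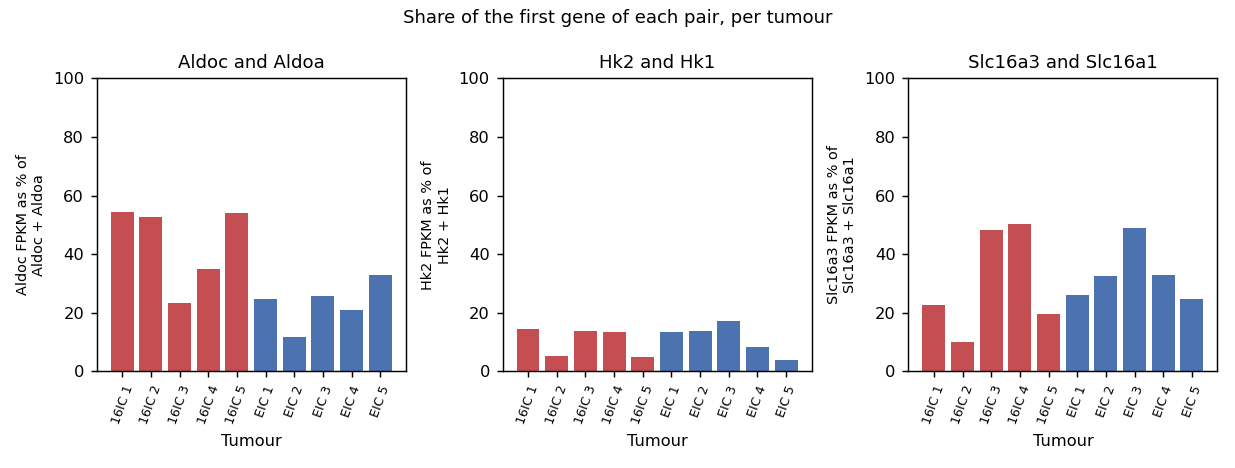
Share of the first gene in the summed FPKM of a pair of paralogs, in percent, for each tumour (16IC red, EIC blue). Aldoc reaches 52.6% to 54.4% in 16IC 1, 16IC 2 and 16IC 5 and at most 32.9% in EIC, while Hk2 and Slc16a3 show no such separation.

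The hexokinases take the first step, and the split between them did not separate the genotypes. Hk1, the housekeeping hexokinase, had 952, 518, 855, 1106 and 533 CPM in 16IC tumours, against 299, 869, 872, 377 and 381 CPM in EIC tumours. Hk2, the insulin- and hypoxia-responsive form, had 111, 20.2, 94.8, 119.9 and 18.5 CPM in 16IC tumours, against 32.8, 97.2, 125, 23.8 and 11.02 CPM in EIC tumours. Both genes were high in 16IC 1, 16IC 3, 16IC 4, EIC 2 and EIC 3 and lower in the other 5 tumours. Hk1 had a log2 difference of 0.50 (SE 0.36, edgeR's adjusted p = 0.555). For Hk2 the fitted log2 difference was 0.33, with an SE of 0.73 (adjusted p = 0.857, edgeR). Hk2 made up 10.3 ± 4.84% of the hexokinase FPKM in 16IC and 11.3 ± 5.16% in EIC (SD, n = 5 each). The log2 ratio of Hk2 to Hk1 differed by -0.15 (SE 0.57, exact permutation p = 0.810, adjusted 0.810). No correlation is given for this pair, because the tumours fall into separate clusters.

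Below the hexokinases, the central enzymes were dominated by tumour-to-tumour variation. Pgk1, phosphoglycerate kinase and a common HIF target, had 461, 392, 1562, 941 and 324 CPM in 16IC tumours, against 482, 945, 1467, 739.7 and 484 CPM in EIC tumours. The highest was 16IC 3, followed by EIC 3, and the groups overlapped. Pgk1 averaged 736 ± 522 CPM in 16IC and 823 ± 409 CPM in EIC (SD, n = 5 each). EdgeR gave Pgk1 a log2 difference of -0.16 (SE 0.48, 95% interval -1.23 to 0.90), with a p of 0.743 and an adjusted p of 0.898. Ldha, which turns pyruvate into lactate, had 926, 1505, 2074, 1510.1 and 1031 CPM in 16IC tumours, against 1673, 1174, 1858, 1381 and 1684 CPM in EIC tumours, and again 16IC 3 was highest. The log2 difference of Ldha was -0.14 (SE 0.24, adjusted p = 0.812, edgeR). Pkm, pyruvate kinase of muscle and tumours, had 1501, 1852, 2512, 1792 and 1766 CPM in 16IC tumours, against 1955, 2441, 3231, 2000.3 and 2011 CPM in EIC tumours, the narrowest span of the 33 members (2.15-fold between the extreme tumours). Pkm had a log2 difference of -0.30 (SE 0.21, edgeR's adjusted p = 0.533).

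The remaining enzymes had log2 differences from -1.03 (Eno2, the neuronal enolase) to 0.68 (Ldhb, the lactate dehydrogenase that favours pyruvate), and each overlapped between genotypes. Between them lay Gpi1 (-0.26), Pfkl (0.19), Pfkm (0.08), Pfkp (-0.21), Tpi1 (0.00), Pgam1 (0.04) and Eno1 (-0.28). These encode glucose-6-phosphate isomerase, the 3 forms of phosphofructokinase, triosephosphate isomerase, phosphoglycerate mutase and the common enolase. Eno2 was the most variable enzyme, with a 41.4-fold span from 1.81 CPM in EIC 5 to 74.8 CPM in EIC 3. Ldhb ran from 112.5 to 401 CPM in 16IC and from 64.0 to 346 CPM in EIC. The differences of the log2 ratios in the other enzyme pairs were 0.36 for Pfkl to Pfkp, 0.26 for Pfkm to Pfkp, -0.43 for Eno2 to Eno1 and -1.05 for Ldha to Ldhb. Their exact permutation p-values ran from 0.151 to 0.722 before adjustment. None of the 11 ratios, enzymes or others, passed after adjustment (smallest adjusted p 0.349), and the genotypes overlapped in each.

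Several of these genes carry counting uncertainty. The annotation names processed pseudogenes of Aldoa, Pgk1, Pgam1 and Ldha, whose near-identical sequence could share reads with them. Eno1b, counted apart from Eno1, ran from 189 CPM in 16IC 1 to 492 CPM in EIC 5. Whether Eno1 and Eno1b share reads was not tested, so the Eno1 level and its ratios are uncertain too. Other genes overlap at least 10% of the exonic bases of Gpi1, Pfkm, Pkm, Bnip3 and Ankrd37 (10.2% to 22.7%). The sources used here do not say how strand and multi-mapping reads were handled in counting. Aldoc, Slc16a1 and Slc16a3 share no exonic base with another annotated gene.

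The regulators of flux were not separated by genotype. Pfkfb3, which makes the phosphofructokinase activator fructose 2,6-bisphosphate, ran from 10.9 to 141 CPM in 16IC and from 30.6 to 160 CPM in EIC (log2 difference -0.51, SE 0.73). Its relative Pfkfb4 was scarce, at 1.58 to 5.39 CPM in 16IC and 2.34 to 8.29 CPM in EIC (-0.64, SE 0.45). Pdk1, a pyruvate dehydrogenase kinase, ran from 25.1 to 173 CPM in 16IC and from 27.7 to 125 CPM in EIC (0.34, SE 0.59). The log2 ratio of Pfkfb4 to Pfkfb3 differed by 0.31 (SE 1.12, exact permutation p = 0.762, adjusted 0.810). It was lowest in 16IC 3 and EIC 3, the tumours with most Pfkfb3.

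The 8 hypoxia targets all had lower mean levels in 16IC, but the evidence differed from gene to gene. Ndrg1 (ENSMUSG00000005125, chromosome 15, 66929318 to 66969640, minus strand), a stress-responsive gene strongly induced by hypoxia, had 19.2, 140.5, 142, 40.9 and 109 CPM in 16IC tumours, against 545, 40.5, 954, 308 and 495 CPM in EIC tumours. Here too 4 EIC tumours were above every 16IC tumour, but EIC 2 was among the lowest of all, so the groups overlapped. The mean was 90.3 ± 57.0 CPM in 16IC and 468 ± 336 CPM in EIC (SD, n = 5 each). In log2, 16IC over EIC came to -2.38 for Ndrg1 (SE 0.76, 95% interval -4.05 to -0.70), at an edgeR p of 0.00983 and 0.290 after adjustment. It was called by DESeq2 (adjusted p = 0.0293), a call lost without EIC 1, EIC 3, EIC 4, EIC 5, 16IC 1 or 16IC 4 (adjusted p up to 0.134).

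P4ha2 and P4ha1 encode catalytic subunits of the prolyl 4-hydroxylase that matures collagen. P4ha2 (ENSMUSG00000018906, chromosome 11, 54100095 to 54131665, plus strand) had 4.03, 13.0, 13.4, 4.66 and 14.6 CPM in 16IC tumours, against 22.8, 16.0, 94.8, 24.9 and 19.5 CPM in EIC tumours. Every EIC tumour exceeded every 16IC tumour, but the gap between EIC 2 and 16IC 5 was small and EIC 3 stood far above the rest. P4ha2 averaged 9.95 ± 5.15 CPM in 16IC and 35.6 ± 33.3 CPM in EIC (SD, n = 5 each). This is a log2 difference of -1.84 (SE 0.58, 95% interval -3.12 to -0.55), and edgeR's p of 0.00937 became 0.290 after adjustment. By DESeq2 the adjusted p was 0.0465, and the call was lost without EIC 1, EIC 3, EIC 4, 16IC 1, 16IC 3 or 16IC 4 (adjusted p up to 0.199), and without EIC 3 the difference was -1.07. P4ha1 (ENSMUSG00000019916, chromosome 10, 59323296 to 59373304, plus strand) had 51.8, 49.2, 127, 79.8 and 66.8 CPM in 16IC tumours, against 89.6, 141, 244, 156 and 122 CPM in EIC tumours. The 16IC tumour 3 lay within the EIC range, and the other 16IC tumours were below it. The mean was 74.9 ± 31.5 CPM in 16IC and 151 ± 57.9 CPM in EIC (SD, n = 5 each). EdgeR gave P4ha1 a log2 difference of -1.01 (SE 0.32, 95% interval -1.72 to -0.30), with a p of 0.00967 and an adjusted p of 0.290. DESeq2 did not call it (adjusted p = 0.0920).

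The upstream windows of these subunits, of the same length, build and marking, are shown because both genes had lower levels in 16IC. Each holds 3 matches, which does not set them apart. A window of Ldha and that of Bnip3 hold 5 each, with log2 differences of -0.14 and -0.14. A window of Hk1 (0.50) and that of Hif1a (0.32) hold 3 each. A window for Ndrg1 was not used here.
P4ha2, chr11:54100674-54100923, plus strand: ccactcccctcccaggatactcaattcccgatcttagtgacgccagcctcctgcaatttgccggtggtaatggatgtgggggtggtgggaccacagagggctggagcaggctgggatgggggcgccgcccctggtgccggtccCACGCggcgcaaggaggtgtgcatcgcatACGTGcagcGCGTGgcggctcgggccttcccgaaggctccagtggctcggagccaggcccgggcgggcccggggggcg
P4ha1, chr10:59323046-59323295, plus strand: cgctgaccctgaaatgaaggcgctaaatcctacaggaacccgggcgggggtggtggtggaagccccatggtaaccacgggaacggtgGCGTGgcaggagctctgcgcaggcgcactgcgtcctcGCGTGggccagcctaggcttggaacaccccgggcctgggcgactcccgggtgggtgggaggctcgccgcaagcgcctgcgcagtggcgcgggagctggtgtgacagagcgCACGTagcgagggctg
In both windows 1 of the matches is ACGTG and the other 2 are GCGTG. The P4ha2 window lies inside the gene by the position given above.

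The secreted hypoxia targets followed another order of tumours. Vegfa, the main growth factor of vessels, had 72.9, 57.3, 275, 197 and 57.1 CPM in 16IC tumours, against 113, 394, 1258, 209 and 45.8 CPM in EIC tumours. EIC 3 was the highest and EIC 5 the lowest of all 10. Vegfa averaged 132 ± 99.0 CPM in 16IC and 404 ± 495 CPM in EIC (SD, n = 5 each). In log2, 16IC over EIC came to -1.62 for Vegfa (SE 0.83, 95% interval -3.46 to 0.23), at an edgeR p of 0.0799 and 0.420 after adjustment. Without EIC 3 the difference was -0.53. Adm, which encodes the vasodilator adrenomedullin, had 3.53, 3.63, 51.5, 15.8 and 6.57 CPM in 16IC tumours, against 22.0, 26.6, 105, 34.2 and 5.78 CPM in EIC tumours, again with EIC 3 highest and 16IC 3 second. For Adm the fitted log2 difference was -1.26, with an SE of 0.88 (adjusted p = 0.544, edgeR). Without EIC 3 it was -0.45 and without 16IC 3 it was -2.39.

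Vegfa and Adm varied together across the 10 tumours. The Pearson r of their log2 CPM was 0.909 (permutation p = 3.20e-04, adjusted 0.00256 over 8 pairs) and the Spearman rho 0.842 (permutation p = 0.00388, adjusted 0.0310). Without EIC 5 and EIC 3, the tumours farthest out in Vegfa, r was 0.863. Of the 7 pairs for which a correlation is given, this was the one that passed. Slc16a1 and Slc16a3 had an r of 0.664 (permutation p = 0.0378, adjusted 0.101) and a rho of 0.685 (p = 0.0341, adjusted 0.0910). For Pgk1 with Ldha r was 0.573 and 0.171 without EIC 3 and 16IC 3 (permutation p = 0.0873, adjusted 0.175; rho 0.624, p = 0.0611, adjusted 0.122), so that relation rests on those tumours. For Pgk1 with Slc2a1 r was 0.462 and 0.0931 without the same tumours (permutation p = 0.186, adjusted 0.292; rho 0.430, p = 0.219, adjusted 0.350).

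Not every target of hypoxia signalling moved with every other. Egln3, itself a HIF target, and Ndrg1 had an r of 0.0137 (permutation p = 0.969, adjusted 0.969; rho 0.00606, p = 1, adjusted 1), and -0.645 without 16IC 3 and EIC 3. EIC 5 and EIC 1 had the lowest Egln3 levels but high Ndrg1, whereas 16IC 3 had high Egln3 and less Ndrg1 than 4 of the EIC tumours. Car9 and Ankrd37 had an r of 0.429 (permutation p = 0.219, adjusted 0.292; rho 0.358, p = 0.315, adjusted 0.420), and -0.105 without EIC 5 and EIC 3.

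**Figure D4:**
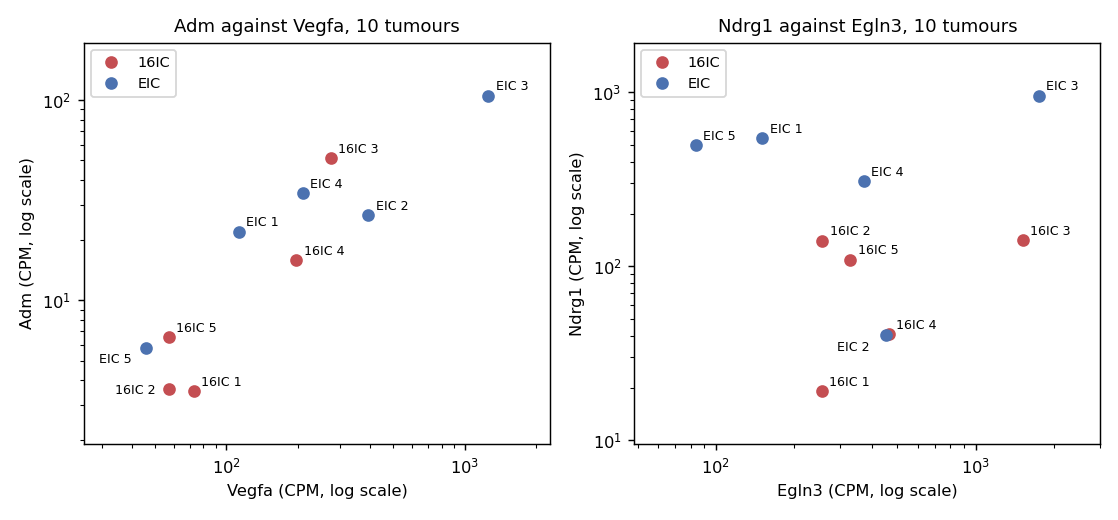
Adm against Vegfa (left) and Ndrg1 against Egln3 (right), CPM on log axes, 1 point per tumour (16IC red, EIC blue). Adm follows Vegfa over both genotypes, while 4 EIC tumours have high Ndrg1 over the whole range of Egln3.

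Car9, the tumour-cell surface carbonic anhydrase that is widely read as a hypoxia marker, had 35.9, 23.3, 42.7, 52.5 and 23.7 CPM in 16IC tumours, against 14.2, 10.4, 165, 31.1 and 9.27 CPM in EIC tumours. EIC 3 was far above the rest, and 3 EIC tumours were below every 16IC tumour. The log2 difference of -0.37 (SE 0.76, adjusted p = 0.850, edgeR) therefore rested on EIC 3, and it was 1.13 without that tumour. DESeq2 gave no adjusted p for Car9. The log2 ratio of Car9 to Slc2a1 differed by 1.29 between 16IC and EIC (SE 0.61, exact permutation p = 0.0635, adjusted 0.349), and the ratios overlapped.

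Bnip3, which drives the removal of mitochondria, had 36.7, 24.1, 176, 153 and 20.3 CPM in 16IC tumours, against 45.0, 94.5, 234, 53.4 and 25.8 CPM in EIC tumours. The tumours 3 and 4 of 16IC and 3 and 2 of EIC were the highest, and the overlap was broad. The log2 difference of Bnip3 was -0.14 (SE 0.75, adjusted p = 0.947, edgeR). Ankrd37, a small HIF target of little known function, had 0.865, 1.90, 10.9, 8.16 and 3.17 CPM in 16IC tumours, against 5.62, 11.7, 18.3, 10.9 and 1.32 CPM in EIC tumours. The ranges overlapped, with EIC 5 among the lowest tumours. Ankrd37 had a log2 difference of -0.94 (SE 0.75, edgeR's adjusted p = 0.590). The log2 ratio of P4ha2 to P4ha1 differed by -0.66 (SE 0.52, exact permutation p = 0.222, adjusted 0.489).

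The oxygen-sensing genes did not separate the genotypes. Hif1a, the oxygen-regulated subunit of HIF, is controlled mainly at the protein level, which RNA does not show. It had 321, 113, 356, 368 and 122 CPM in 16IC tumours, against 90.7, 289.7, 442, 88.9 and 110.2 CPM in EIC tumours. As with the hexokinases, 16IC 1, 16IC 3, 16IC 4, EIC 2 and EIC 3 were high and the other 5 tumours low. For Hif1a the fitted log2 difference was 0.32, with an SE of 0.54 (adjusted p = 0.807, edgeR). Egln1, the main prolyl hydroxylase that marks HIF for destruction, had 113, 75.9, 299, 239 and 84.5 CPM in 16IC tumours, against 97.8, 202, 439.6, 131 and 101 CPM in EIC tumours. The log2 difference of Egln1 was -0.26 (SE 0.52, adjusted p = 0.842, edgeR). Egln3, an inducible prolyl hydroxylase, had 255, 257, 1518, 462 and 329.6 CPM in 16IC tumours, against 151, 452, 1749, 372 and 83.9 CPM in EIC tumours. The highest 2 tumours, EIC 3 and 16IC 3, came from different genotypes, and the span over all tumours was 20.8-fold. Egln3 had a log2 difference of 0.01 (SE 0.81, edgeR's adjusted p = 0.998). Per length, Egln3 made up 72.3% to 87.3% of the summed Egln3 and Egln1 FPKM in 16IC and 52.8% to 84.3% in EIC. The log2 ratio differed by 0.63 (SE 0.46, exact permutation p = 0.214, adjusted 0.489).

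Seen by tumour, the module had a few strongly expressing tumours in each genotype. EIC 3 was the highest of the 10 tumours for 20 of the 33 members and 16IC 3 for 6. EIC 3 was among the 4 highest tumours for 29 members, 16IC 3 for 25, EIC 2 for 21 and 16IC 4 for 19. By contrast 16IC 2 and 16IC 5 were there for 2 and 1 members. The members' CPM added up to 9536 to 22774 in 16IC and to 10318 to 23222 in EIC. Genotype accounted for a median of 6.79% of the variance of a member's log2 level (from 0.0740% for Aldoa to 84.3% for Aldoc), beside 12.0% over all genes tested. The SD over the 10 tumours was 0.887 at the median member and 0.450 at the median gene tested.

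The members' orders of tumours are described here by the 4 highest tumours, after their values were seen. For 11 members, Gpi1, Pfkm, Pfkp, Aldoa, Tpi1, Pgk1, Eno2, Ldhb, Bnip3, Egln1 and Egln3, the 4 highest tumours were 16IC 3, 16IC 4, EIC 2 and EIC 3. For 5 members, Slc2a1, Slc16a1, Slc16a3, Ndrg1 and P4ha2, they were EIC 1, EIC 3, EIC 4 and EIC 5. For 4 members, Vegfa, Adm, Ankrd37 and P4ha1, they were 16IC 3, EIC 2, EIC 3 and EIC 4. The remaining members were spread over other sets, each shared by at most 2 members. How often genes outside the list share such sets was not examined. The first set mixes the genotypes evenly, and the second takes the EIC tumours other than EIC 2. The 6 members with a negative difference at an unadjusted p under 0.05 are the second set and P4ha1. The set and the p-values come from the same values, so this match is no separate evidence.

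Markers of other cells moved with some of these orders. The basal and myoepithelial list (Krt5, Krt14, Krt17, Trp63, Acta2 and Myh11) summed to 22.0, 63.8, 18.4, 21.0 and 91.1 CPM in 16IC tumours, against 621, 36.6, 130.5, 271 and 173 CPM in EIC tumours. It was thus high in EIC 1, EIC 3, EIC 4 and EIC 5, the tumours with most Slc16a3 and Ndrg1. Its 6 genes had lower mean levels in 16IC (exact permutation p = 0.0238 for the sum, 0.286 adjusted over 12 lists), and Krt5, Krt14 and Krt17 were at 0 in some tumours. Fibroblast markers (Col1a1, Col1a2, Pdgfra, Pdgfrb, Dcn and Lum) summed to 280 to 2285 CPM in 16IC and 1135 to 4358 CPM in EIC, with 1 of 6 genes higher in 16IC. They were lowest in 16IC 3, 16IC 4 and EIC 2, where the first set of 11 members was high, but 1982 CPM in EIC 3. Neutrophil markers summed to 3.10 to 19.7 CPM in 16IC and 12.5 to 78.7 CPM in EIC (0 of 5 genes higher in 16IC), with Retnlg at 0 in some tumours. Endothelial markers, which matter for vessels and Vegfa, summed to 92.4 to 244 CPM in 16IC and 148 to 280 CPM in EIC (1 of 6 genes higher in 16IC). The part of these cells in the results was not tested.

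Other lists were less ordered. Macrophage markers summed to 193 to 483 CPM in 16IC and 268 to 498 CPM in EIC (0 of 6 genes higher in 16IC). Proliferation genes summed to 288 to 688 CPM in 16IC and 398 to 737 CPM in EIC. T cell markers stayed at 2.61 to 6.68 CPM in 16IC and 0.713 to 14.8 CPM in EIC. Red blood cell genes summed to 375 to 906 CPM in 16IC and 301 to 2581 CPM in EIC, and adipocyte markers to 10.6 to 219 CPM in 16IC and 21.2 to 220 CPM in EIC.

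**Figure D5:**
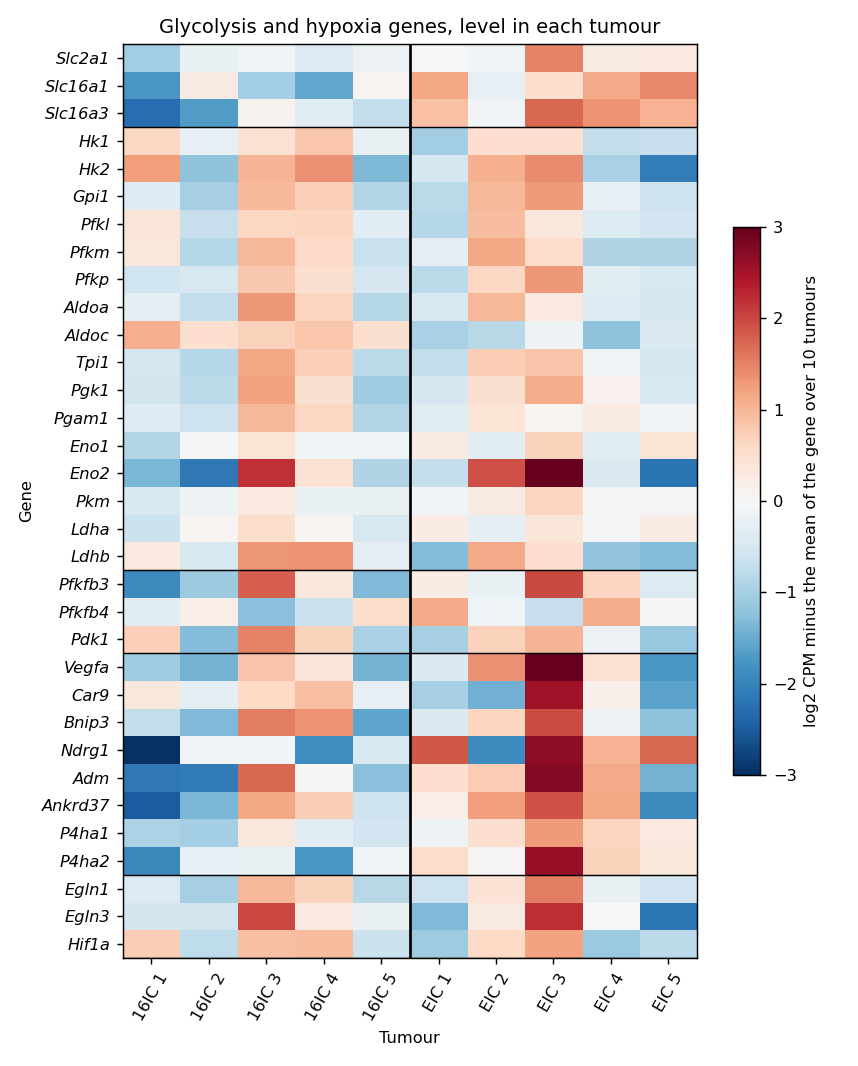
Log2 CPM of each of the 33 genes minus its mean over the 10 tumours (colour, drawn at the end of the scale beyond 3 in either direction), with 16IC tumours left and EIC tumours right of the vertical line and roles separated by horizontal lines. EIC 3, 16IC 3, EIC 2 and 16IC 4 are red for most enzymes, Aldoc is red in all 16IC tumours, and EIC 1, EIC 4 and EIC 5 are red for the lactate transporters and Ndrg1.

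Upstream windows were found in RefSeq for 32 of the 33 members (all but Ndrg1), 46 windows in all. At least 1 ACGTG or GCGTG on either strand was present upstream of 29 of these 32 genes (90.6%), beside 41.5% of 27025 genes with windows of the same length. By window the share was 80.4% among members and 38.6% among all 32851. Member windows were also richer in G and C (median 61.0%, beside 52.4%), and among all windows with at least 60% G and C 63.8% hold a motif. A match is a description of these letters and says nothing of a bound factor.

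Beyond the 33 members, a wider list was read in the same fit, also chosen with earlier results of these data known. Its shares are therefore a description and no independent support. It holds 95 glycolysis and hypoxia genes, without the members. Of these 92 were in the table and 85 were tested, 29 with a positive and 56 with a negative difference (median -0.27, and -0.01 without EIC 3). EdgeR called 0 of them, with 16 at an unadjusted p under 0.05 (2 higher, 14 lower in 16IC), or 18.8% of those tested beside 13.1% of all genes tested. DESeq2 called 8 (9.41%), all lower in 16IC, beside 2.04% of all genes tested called in either direction and 1.19% called as lower. The 8 included Pdk4, Pgam2, Eno3 and Gapdh from the glycolysis genes, and Inhba, Angptl4 and Loxl2 from the hypoxia genes.

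Inhba, Angptl4 and Loxl2 encode secreted proteins. Inhba, the activin A subunit, had 4.39, 4.94, 2.43, 2.61 and 3.22 CPM in 16IC tumours, against 20.8, 9.62, 15.3, 17.4 and 8.97 CPM in EIC tumours, without overlap. Its log2 difference was -2.03 (SE 0.32, adjusted p = 0.131 by edgeR and 1.01e-06 by DESeq2). Angptl4, an inhibitor of lipoprotein lipase, had 6.08 to 18.2 CPM in 16IC and 14.4 to 214 CPM in EIC (-2.88, SE 0.72), and Loxl2, a collagen cross-linking oxidase, had 7.54 to 24.3 CPM in 16IC and 20.7 to 63.3 CPM in EIC (-1.38, SE 0.38). Inhba and Angptl4 were called in all 10 fits by DESeq2 that left out 1 tumour, and Loxl2 in 4.

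Of the wider glycolysis genes, Pgam2, Eno3 and Gapdh were highest in EIC 2. Pgam2, the muscle phosphoglycerate mutase, had 3.67, 2.62, 0.608, 2.26 and 1.76 CPM in 16IC tumours, against 15.2, 36.9, 3.30, 4.501 and 10.4 CPM in EIC tumours. Its log2 difference was -2.69 (SE 0.7, adjusted p = 0.261 by edgeR and 0.00512 by DESeq2). DESeq2 called it in all 10 fits that left out 1 tumour. Eno3, the muscle enolase, had 15.9, 6.07, 4.20, 4.66 and 4.34 CPM in 16IC tumours, against 43.1, 92.0, 4.31, 13.6 and 19.99 CPM in EIC tumours. Its log2 difference was -2.3 (SE 0.74, adjusted p = 0.290 by edgeR and 0.0400 by DESeq2). The DESeq2 call held in 3 of the 10 fits that left out 1 tumour, with an adjusted p up to 0.145. Skeletal muscle markers (Acta1, Ckm, Myh4, Mylpf, Tnnt3, Tnni2, Actn3 and Mb) summed to 348, 26.9, 4.01, 64.4 and 12.0 CPM in 16IC tumours, against 1004, 2379, 10.96, 151 and 309 CPM in EIC tumours. They were thus highest in EIC 2 and EIC 1, as were both enzymes, with 0 of 8 genes higher in 16IC and Myh4 and Actn3 at 0 in some tumours, and their part in these differences was not tested. Pdk4, the fasting-induced pyruvate dehydrogenase kinase, had 3.39, 3.33, 1.89, 0.960 and 0.645 CPM in 16IC tumours, against 26.2, 26.5, 1.38, 33.1 and 15.3 CPM in EIC tumours. All EIC tumours but EIC 3 were above every 16IC tumour. EIC 3 was also the lowest EIC tumour in skeletal muscle markers (10.96 CPM) and adipocyte markers (21.2 CPM). In EIC 1 and EIC 2, with 1004 and 2379 CPM of muscle markers, Pdk4 was at 26.2 and 26.5 CPM. It was at 3.39 CPM in 16IC 1, with 348 CPM of muscle markers, and at 3.33 CPM in 16IC 2, with 219 CPM of adipocyte markers. The part of these cells in the Pdk4 difference was not tested. The log2 difference of Pdk4 was -3.33 (SE 0.76, adjusted p = 0.249 by edgeR and 3.55e-04 by DESeq2).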

How the data were processed

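RNA from 10 tumours was sequenced, 5 per genotype, with groups taken from the genotype labels. Tumour numbers follow sample order and pair nothing. RNeasy Mini extraction and NEBNext Ultra II libraries are given per the labels' protocols. The submitters' processing notes name HTSeq, STAR and Trimmomatic, limma and edgeR, and the build GRCm38 (mm10), with no version. Annotation, strand setting and handling of multi-mapping reads: not given in the sources used here.

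The deposited table holds raw counts per gene and tumour, which all tests use. The authors also deposited normalized counts, a signal equal to the counts divided by 1 factor per library, with group means, which served to check the table. The authors' FPKM values divide counts by gene length and by 1 number per library. They serve to compare genes within a tumour. The authors' deposited log2 fold changes run 16IC over EIC. The authors' deposited p-values give an adjusted p of 1 where no p exists (157 genes). DESeq2 1.42.0 on the counts gave the same 356 calls, and its size factors equalled the authors' factor for each library. The deposited statistics thus match a DESeq2 fit of the same counts and are no independent check of it.

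Counts were tested with edgeR 4.0.16 in R 4.3.3 (TMM, filterByExpr with a minimum count of 10, robust quasi-likelihood fit, Benjamini-Hochberg, threshold 0.05), with genotype as the only term. No batch is labelled. Depth was 14813940 to 16947400 counts per tumour. A gene's biological coefficient of variation had a median of 33.6%, so spread between tumours limits precision. The closest tumours of a group, 16IC 2 and 16IC 5, were not duplicates (chi-square over degrees of freedom 24.2). P-values measure the spread between tumours of different mice. On simulated counts (14675 genes) the test recovered 66 of 99 genes changed 4-fold and 16 of 99 changed 2-fold. Ratios and marker sums were tested by exact two-sided permutation over 252 arrangements, and correlations with 100000 permutations. Correlations and ratios use log2 CPM with a prior count of 2. A pair was taken to form separate clusters, a criterion chosen after its values were seen, where a gap over 0.33 of the range left at least 3 tumours on each side.

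Members, lists, pairs and the naming rule were chosen with earlier results of these data known. The rule gives values per tumour for the named paralog pairs, Slc2a1, Pgk1, Ldha, Pkm, the hypoxia and oxygen-sensing members and any member with an unadjusted p under 0.05. From the wider list it takes the genes called by edgeR or DESeq2. Of these, 1 gene is not reported here, nor are 2 genes of the neural markers. For Aldoa, listed under 2 identifiers, ENSMUSG00000030695 was used. Overlaps and pseudogenes come from GENCODE mouse release M21, and upstream windows from RefSeq on GRCm38.p6. Alternatives were DESeq2, limma-voom (limma 3.58.1) with quality weights, other scalings and filters, other prior counts, FPKM ratios, and leaving out each tumour.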

Additional observations from a re-analysis of the deposited data

Results flagged for a closer look

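Each genotype's 5 values were searched, for each of the 33 members, for a tumour lying far from the other 4 relative to the whole range, with a critical ratio of 0.71. Chance flags about 1 in 20 groups, or 3.30 of the 66 looked at, and 2 were found. Slc2a1 stood at 512 CPM in EIC 3, while the other EIC tumours had 170 to 224 CPM, so the gap made up 0.747 of the range. P4ha2 stood at 94.8 CPM in EIC 3, while the other EIC tumours had 16.0 to 24.9 CPM, a gap of 0.752 of the range. Both come from the tumour that was the highest of the 10 for 20 of the 33 members.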

How the results depend on the processing

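Under DESeq2 the calls were 4 of the members, 356 of all genes and 8 of the wider list, where edgeR had 0. The members so called were Aldoc, Slc16a3, Ndrg1 and P4ha2. EdgeR called 0 members under RLE or total-count scaling, without a filter, with at least 1 CPM in 5 tumours and without any 1 tumour. Limma-voom, run apart from edgeR's test, called 0 members too. Total-count scaling moved the median of all genes by -0.05, turned Pgam1 (-0.01) and Egln3 (-0.05), left 9 members positive, where TMM gave 11, and left 3 members (9.09%, beside 2.57% of all genes tested) without overlap. Tpi1 was 0.02 without a filter and 0.00 by DESeq2. Limma-voom with quality weights turned Gpi1 (0.07), Pfkp (0.16), Tpi1 (0.10), Pgam1 (-0.09) and Car9 (0.70). Without the 2 tumours farthest out, r was -0.105 for Car9 with Ankrd37 and -0.645 for Egln3 with Ndrg1. The cause was not tested.

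Leaving out 1 tumour gave edgeR 0 to 2 calls over all genes, DESeq2 2 to 5 members (178 to 839 genes in all), and 2 to 6 members without overlap (3.14% to 6.66% of all genes tested). The log2 differences then ran from -0.40 to 0.22 for Tpi1, -0.63 to 0.59 for Bnip3, -0.18 to 0.51 for Pfkm, -0.28 to 0.51 for Aldoa, -0.28 to 0.21 for Pgam1, -0.08 to 0.69 for Pdk1, -0.78 to 1.09 for Egln3, -0.64 to 0.15 for Pgk1, -0.59 to 0.10 for Gpi1, -0.47 to 0.21 for Pfkp, -2.21 to 0.07 for Eno2, -1.47 to 0.10 for Pfkfb3, -0.63 to 1.13 for Car9 and -0.60 to 0.29 for Egln1. Ratio differences ran from -0.52 to 0.11 for Hk2 to Hk1, -0.70 to 0.08 for Slc16a3 to Slc16a1, -1.12 to 0.13 for Eno2 to Eno1 and -0.31 to 1.09 for Pfkfb4 to Pfkfb3. For r the ranges were -0.403 to 0.257 (Egln3 with Ndrg1), 0.502 to 0.787 (Slc16a1 with Slc16a3, past the threshold at the top) and -0.0765 to 0.335 (Aldoa with Aldoc). The members whose log2 differences are not listed above kept their sign in each of these fits, among them Aldoc (1.29 to 1.57) and Slc16a3 (-2.15 to -1.60).

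No paired analysis was possible because the labels carry no replicate numbers that tie tumours of the genotypes together. With 5 tumours per genotype, changes near 2-fold were mostly missed on simulated counts.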

Other observations

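Ordered per length, the mean FPKM in 16IC was highest for Aldoa (674 ± 445 in 16IC, 609 ± 308 in EIC, SD, n = 5 each), then Aldoc (440 ± 82.2 in 16IC, 167 ± 49.6 in EIC) and Ldha (410 ± 126 in 16IC, 457 ± 82.4 in EIC). In EIC the mean of Aldoc stood below those of Aldoa, Ldha, Pkm, Pgk1, Tpi1, Egln3, Pgam1 and Eno1. At the low end were P4ha2 (1.54 ± 0.792 FPKM in 16IC, 5.54 ± 5.15 in EIC) and Pfkfb4 (0.664 ± 0.306 FPKM in 16IC, 1.04 ± 0.561 in EIC).

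Gapdh, the glyceraldehyde phosphate dehydrogenase that every cell uses, had 4.68, 7.20, 21.1, 14.6 and 9.44 CPM in 16IC tumours, against 9.27, 406, 96.7, 14.9 and 4.76 CPM in EIC tumours. It was highest in EIC 2 and EIC 3. DESeq2 called its log2 difference of -3.22 (SE 1.14, adjusted p 0.0324), but in 3 of the 10 fits that left out 1 tumour, with an adjusted p up to 0.273. Gapdh has many processed pseudogenes, and since the sources used here do not say how reads mapping to several places were counted, this level is uncertain. The second identifier listed under the symbol Aldoa, ENSMUSG00000114515, had 1.20 to 10.2 CPM over the 10 tumours and a log2 difference of -0.06 (adjusted p = 0.981, edgeR).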
